A study of Mus musculus with 60 samples.

Results

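The genes of MHC class II molecules and of peptide loading were followed in spleen leukocytes of NOD mice and of the control strains NON and C57BL/6 (C57). They were H2-Ea, H2-Eb1, H2-Aa, H2-Ab1, H2-DMa, H2-DMb2, H2-Oa, H2-Ob, Cd74 and Ciita. Every probe set that the array annotation assigns to one of these 10 genes was taken, which gave 25 of the 45037 probe sets of both arrays, and 10 of 18193 genes. A probe set is a group of short oligonucleotides that together report 1 transcript. Of the 25 probe sets, 22 were annotated to 1 gene and 3 to several genes, and these 3 are named by their probe set. Signals were compared where they reached 50 in at least 5 of the 30 mice, which 24 of the 25 did.

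The mice were untreated females, and each of the 6 groups held 5 mice: NOD, NON and C57 at 2 weeks and the same strains at 4 weeks. NOD mice develop autoimmune diabetes, NON is a related strain that resists it, and C57 is a more distant control. The cells were not cultured and not fractionated, so each array reports a mixture of B cells, T cells, myeloid cells and other cells of the spleen. In such bulk RNA, fewer cells of a type and less RNA per cell cannot be told apart.

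MHC class II molecules present peptides from the endosome to CD4 T cells, and in the spleen they are carried mainly by B cells, dendritic cells and macrophages. Mice have the class II molecules I-A (H2-Aa and H2-Ab1) and I-E (H2-Ea and H2-Eb1), each made of an alpha and a beta chain. The invariant chain, encoded by Cd74, fills the groove during assembly, H2-DM (H2-DMa with H2-DMb1 or H2-DMb2) exchanges its last fragment for peptide, and H2-DO (H2-Oa and H2-Ob) restrains H2-DM. Ciita encodes the coactivator that switches class II promoters on. The classical chains are highly polymorphic between mouse strains. C57 mice (haplotype H2b) and NOD mice (haplotype H2g7) are known to carry H2-Ea genes that are not expressed, and RefSeq lists H2-Ea of C57BL/6J as a transcribed pseudogene.

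Class II promoters share an X box and a Y box, to which the RFX and NF-Y factors bind. The stretches below are the members whose promoter held the Y box core GATTGG on the gene strand close to the start. They show the element that these genes have in common, with the Y box core and, where found, the X box core AGNAACNGA in capitals. Each stretch runs 5′ to 3′ on the gene's own strand, from 50 bases before the Y box core to 20 bases after it (RefSeq, GRCm38.p6). It lies at chr17:34305757-34305832 (plus strand) for H2-Eb1, chr17:34287847-34287922 (minus strand) for H2-Aa, chr17:34145108-34145183 (plus) for H2-DMb2, chr17:34092285-34092360 (plus) for H2-Oa and chr17:34238797-34238872 (plus) for H2-Ob, in each case upstream of the gene.
H2-Eb1: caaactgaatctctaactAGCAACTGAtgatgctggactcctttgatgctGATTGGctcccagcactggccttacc
H2-Aa: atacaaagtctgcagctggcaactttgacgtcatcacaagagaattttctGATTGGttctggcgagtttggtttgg
H2-DMb2: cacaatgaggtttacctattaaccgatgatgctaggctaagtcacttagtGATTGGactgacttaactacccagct
H2-Oa: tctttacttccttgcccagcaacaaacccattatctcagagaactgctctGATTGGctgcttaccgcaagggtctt
H2-Ob: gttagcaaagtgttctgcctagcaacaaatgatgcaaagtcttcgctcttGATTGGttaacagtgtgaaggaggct

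Promoters of 6 of the 10 genes were searched. Those of H2-Ea, H2-Ab1 and Ciita were absent from the promoter set used, and that of Cd74 was left out by choice. In the 250 bases before the start, the Y box core began 60 bases upstream in H2-Eb1, 49 in H2-Aa, 91 in H2-DMb2, 44 in H2-Oa and 58 in H2-Ob. In H2-DMa it was found 199 bases before the second of its annotated starts and not before the first. The X box core, as spelled here, was found in H2-Eb1 alone of the 6, with 23 bases between it and the Y box core. Searched on both strands over the same 250 bases, the Y box core was in 14.6% of all 32851 promoters, the X box core in 4.42% and both in 0.594%. The cores do not overlap in H2-Eb1. The genes on chromosome 17 lie in the order H2-Oa, H2-DMa, H2-DMb2, H2-DMb1, H2-Ob, H2-Ab1, H2-Aa, H2-Eb1, H2-Eb2, H2-Ea.

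Some mice stood apart. Gapdh gave a ratio of its 3′ to its 5′ probe sets, a measure that grows as RNA degrades, of 0.744 to 4.00 on the 430A array. It was highest in NON replicate 2 of 2 weeks (4.00) and NON replicate 1 of 4 weeks (3.15). NOD replicate 3 of 4 weeks had a median correlation of 0.739 with the other mice of its group, against 0.8245 to 0.8761 in the other 29 mice. NON replicate 5 of 2 weeks had the lowest signal of its group on 20 of the 24 class II probe sets, and NOD replicate 3 of 2 weeks on 17. The same NON mouse had the lowest mean B cell marker level of all 30 mice (9.78 on the log2 scale). Without this mouse 8 class II probe sets passed the strain test of 2 weeks, beside 7 with it, and 12 rose with age in the average over strains with or without it.

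**Figure D1:**
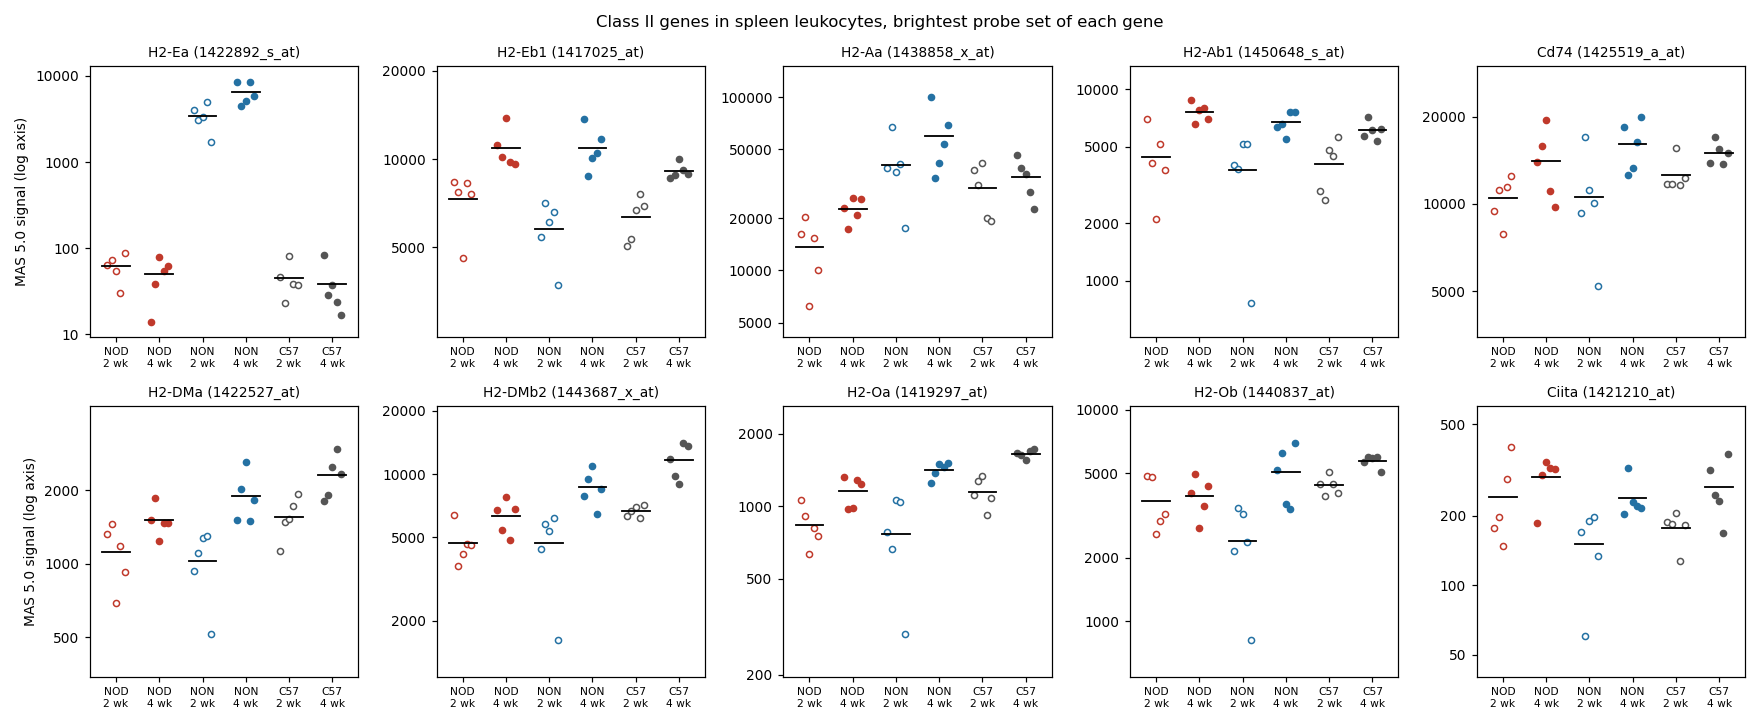
MAS 5.0 signal (log axis) of the brightest probe set of each of the 10 genes in every mouse, by strain and age (wk, weeks), with open points for 2 weeks, filled points for 4 weeks and a line at the mean of 5 mice. H2-Ea was at 1721 or above in every NON mouse and at 89 or below in every NOD and C57 mouse, while H2-Eb1 and Cd74 overlapped between the strains.

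H2-Ea, the alpha chain of I-E, separated NON from the other strains at both ages. On probe set 1422892_s_at the NON mice of 2 weeks had signals of 3970.4, 3053, 3331, 4990.4 and 1721, the NOD mice 63.8, 72.3, 55, 30 and 89, and the C57 mice 46.7, 23.2, 81.9, 38.3 and 37.7. At 4 weeks the NON mice were at 8359.7, 4432, 5087, 8568 and 5846, the NOD mice at 14.1, 38.7, 79.3, 54.9 and 62.4, and the C57 mice at 83.7, 28.9, 37.3, 24 and 17. No NOD or C57 mouse came near the NON range, and NOD and C57 overlapped. The mean of 2 weeks was 3413 ± 1204 (SD, n = 5) in NON, 55-fold that of NOD (62 ± 21.9) and at least 68.3-fold that of C57 (45.6 ± 22), with a mean under 50 taken as 50. At 4 weeks the NON mean was 6459 ± 1899, at least 129-fold NOD (49.9 ± 24.8) and C57 (38.2 ± 26.5). On the scale of log2(signal + 10) the difference NOD minus NON was -5.55 (SE 0.33, adjusted p = 1.77e-07) at 2 weeks and -6.83 (SE 0.38, adjusted p = 1.94e-07) at 4 weeks. NOD and C57 differed by 0.39 (adjusted p = 0.688) and 0.33 (adjusted p = 0.767), with neither past the threshold of 0.05.

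The second H2-Ea probe set, 1422891_at, gave the same split. NON mice were at 1839, 1414, 1788, 2447 and 1401 at 2 weeks and at 3644, 2457, 2546, 3104 and 2633 at 4 weeks. The 20 NOD and C57 mice lay between 15 and 57.6. The third probe set, 1426202_at, was below 50 in all 30 mice (highest 41.2, NOD replicate 3 of 2 weeks) and was not tested. H2-Eb1 (1417025_at), the beta chain of I-E, did not show the H2-Ea split. Its mean signal at 2 weeks was 7299.6 ± 1555 in NOD, 5779 ± 1312 in NON and 6321 ± 1082 in C57. The strains overlapped (F-test adjusted p = 0.704). The 95% interval of the log2 difference NOD minus NON at 4 weeks ran from -0.36 to 0.37 (F-test adjusted p = 0.652).

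Over all class II probe sets, 7 of 24 passed the strain test at 2 weeks (limma's moderated F-test over the 3 strains, adjusted p under 0.05), where 1.66% of the 38293 probe sets tested passed. At 4 weeks 5 of 24 passed, where 1.51% of all passed. They were both tested probe sets of H2-Ea, of the 4 of H2-Aa 2 at 2 weeks and 1 at 4 weeks, 1 of the 3 of H2-Ab1, 1422201_at (annotated to H2-Ob and Gm20506) and, at 2 weeks, 1418638_at (annotated to H2-DMb2 and H2-DMb1). At 2 weeks the count was 4 without NOD replicate 2. No probe set annotated to H2-Eb1, Cd74, H2-DMa, H2-DMb2, H2-Oa, H2-Ob or Ciita alone passed at either age.

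H2-Aa, the alpha chain of I-A, gave different strain orders on its 4 probe sets. Probe set 1443783_x_at was bright in C57. At 2 weeks the C57 mice were at 1873, 1827, 2100.5, 1674 and 1715, the NOD mice at 922, 585, 345, 513 and 389, and the NON mice at 239.6, 388, 391, 429 and 153. At 4 weeks the C57 mice were at 3889, 3614, 2734, 3002 and 2287, the NOD mice at 858, 802, 742, 621 and 605, and the NON mice at 773, 461, 525, 468 and 907. Every C57 mouse was above every NOD and NON mouse of its age. The log2 difference NOD minus C57 was -1.80 (SE 0.3, adjusted p = 0.00616) at 2 weeks and -2.07 (SE 0.23, adjusted p = 0.000192) at 4 weeks, and NON minus C57 was -2.57 (adjusted p = 0.000255) and -2.32 (adjusted p = 6.12e-05). With the B cell marker level of each mouse as a covariate, NOD minus C57 was -1.33 (SE 0.279, adjusted p = 0.0613) and -2.30 (SE 0.494, adjusted p = 0.285) and no longer passed, nor did NON minus C57 at 2 weeks (-1.77, adjusted p = 0.0832). At 4 weeks the B cell level was 11.04 to 11.45 in C57 and 10.45 to 10.75 in NOD. At 2 weeks it was 10.8 to 11.2 in C57 and 9.78 to 10.75 in NON. Where groups do not overlap in that level, the fit cannot separate it from strain. With the Gapdh ratio as a covariate NOD minus C57 at 2 weeks was -1.68 (adjusted p = 0.0535) and did not pass either, and that ratio was 1.02 to 2.17 in C57 and 0.744 to 1.06 in NOD at that age on 430A.

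Probe set 1452431_s_at of the same gene was bright in NOD. NOD mice of 2 weeks were at 10900.1, 9446, 6845, 9681 and 9682, NON mice at 2684, 3578, 5878, 4316 and 1725, and C57 mice at 3505, 3846, 4382, 5296 and 5287. All NOD mice were above all control mice at that age. The log2 difference NOD minus NON was 1.46 (SE 0.28, adjusted p = 0.0274), and NOD minus C57 was 1.06 (SE 0.28, adjusted p = 0.113). Under the alternatives the adjusted p of NOD against NON ranged from 0.00118 to 0.121, and it was above 0.05 without any 1 of NOD replicates 1, 2, 4 and 5 or NON replicates 1 and 2. At 4 weeks the F-test did not pass (adjusted p = 0.189), with means of 11954 ± 3614 in NOD, 6941 ± 1074 in NON and 7590.4 ± 1292 in C57.

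Probe set 1438858_x_at of H2-Aa had its lowest means in NOD. NOD had 13599.7 ± 5487 at 2 weeks and 22643 ± 3665 at 4 weeks. NON had 40386 ± 17837 and 59749 ± 26277, and C57 had 29989 ± 10202 and 34444 ± 9212. The brightest NON mice, replicate 2 of 2 weeks (67478) and replicate 1 of 4 weeks (100435), had the highest Gapdh ratios on 430B (4.23 and 3.61). In NOD that ratio was 0.694 to 1.04 at 2 weeks and 0.855 to 1.46 at 4 weeks. At 4 weeks every NOD mouse was below every NON mouse. The log2 difference NOD minus NON was -1.56 (95% interval -2.37 to -0.75, adjusted p = 0.0991) at 2 weeks and -1.31 (95% interval -1.92 to -0.7, adjusted p = 0.0572) at 4 weeks, and the F-test passed at neither age (adjusted p = 0.0903 and 0.0704). With the B cell marker level as a covariate the 2 weeks difference passed (-1.93, adjusted p = 0.0325). On 1435290_x_at the difference NOD minus NON was 0.72 (adjusted p = 0.188) at 2 weeks and 0.17 (adjusted p = 0.842) at 4 weeks. NOD was thus lower than C57 on 1 probe set of H2-Aa and higher than NON on another. Sequence differences between the strains under the probes, which can change probe binding, were not tested for H2-Aa, H2-Ab1, H2-Ob or any other member, so a strain difference here is one of signal. The suffix _x_at marks probe sets with probes that can also match other transcripts, and _s_at those whose probes are shared by several transcripts.

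**Figure D2:**
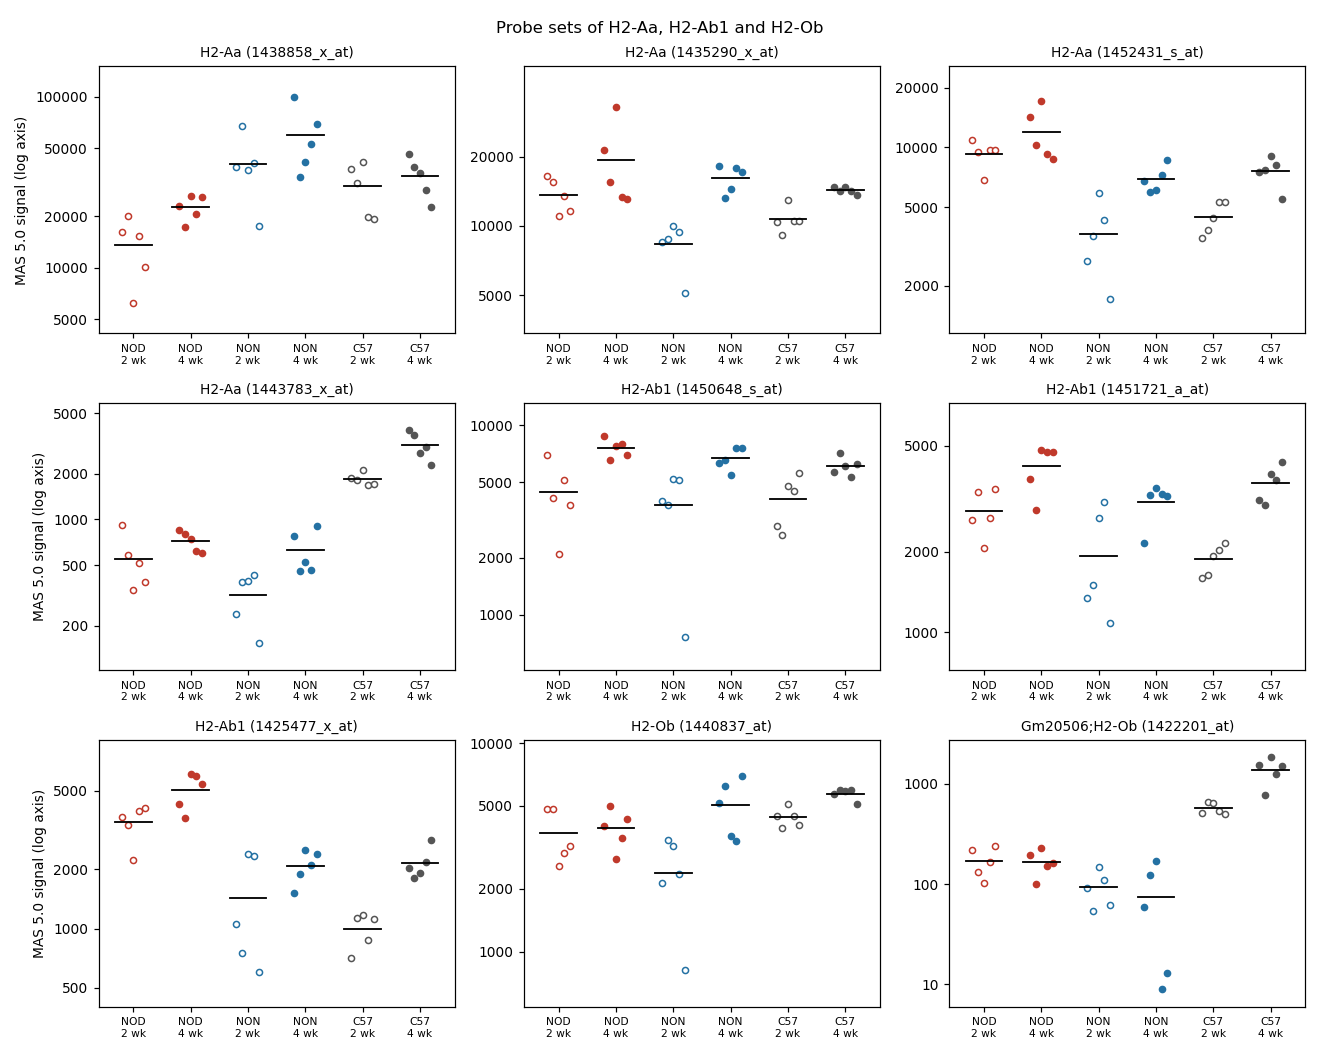
MAS 5.0 signal (log axis) in every mouse of the 4 probe sets of H2-Aa, the 3 of H2-Ab1, the H2-Ob probe set and 1422201_at (Gm20506 and H2-Ob), with open points for 2 weeks, filled points for 4 weeks and a line at the mean of 5 mice. Probe sets of 1 gene order the strains differently, as with H2-Aa, where 1443783_x_at has its highest means in C57 and 1452431_s_at in NOD.

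H2-Ab1, the beta chain of I-A, was higher in NOD on 1 of its 3 probe sets. On 1425477_x_at the NOD mice of 4 weeks were at 4292, 3640.1, 6077, 5928 and 5427, the NON mice at 1513, 1884, 2519, 2105 and 2392, and the C57 mice at 2025, 1812, 1920.4, 2165 and 2809. At 2 weeks the NOD mice were at 3685, 3346, 2233, 3974 and 4074, the NON mice at 1056, 749, 2394, 2344 and 601, and the C57 mice at 708, 1128, 1166, 869 and 1118. NOD lay above both controls without overlap at 4 weeks. At 2 weeks 2 NON mice (replicates 3 and 4) reached the lowest NOD mouse. The log2 difference at 4 weeks was 1.28 (SE 0.21, adjusted p = 0.00899) against NON and 1.23 (SE 0.21, adjusted p = 0.00855) against C57. At 2 weeks it was 1.78 (SE 0.36, adjusted p = 0.028) against C57 and 1.47 (SE 0.36, adjusted p = 0.1) against NON. The 2 weeks call against C57 was lost without any 1 of NOD replicates 1, 2, 4 and 5 or any 1 of the 5 C57 mice, with the methods' test and with the Gapdh ratio as a covariate (adjusted p up to 0.187 over the alternatives). With the B cell marker level as a covariate the differences of 4 weeks were 1.29 and 1.25 with larger errors and did not pass (adjusted p = 0.373 and 0.97). At that age the B cell level was 10.45 to 10.75 in NOD, 10.81 to 11.22 in NON and 11.04 to 11.45 in C57. NOD overlapped with neither control, so the fit cannot separate strain from B cell level.

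The other H2-Ab1 probe sets did not pass at either age. On 1450648_s_at, the brightest of the 3, the means of 4 weeks were 7615 ± 864 in NOD, 6724 ± 886 in NON and 6109 ± 697 in C57. The 95% interval of the log2 difference NOD minus NON ran from -0.17 to 0.53. That interval lies below the whole interval of 1425477_x_at (0.83 to 1.72). On 1451721_a_at the means of 4 weeks were 4194 ± 863, 3089 ± 529 and 3619.7 ± 559 (F-test adjusted p = 0.534).

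Cd74, the invariant chain, had overlapping signals in all strains. NOD went from 10479 ± 1823 at 2 weeks to 14004 ± 3843 at 4 weeks. NON had means of 10555 ± 4241 and 16084 ± 3168, and C57 of 12572 ± 1684 and 15009.5 ± 1373. The F-test had an adjusted p of 0.734 and 0.835. The log2 difference NOD minus NON lay within -0.48 to 0.62 at 2 weeks and -0.67 to 0.23 at 4 weeks (95% intervals).

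The H2-DM genes edit the peptide in the groove. H2-DMa on 1422527_at had its highest means in C57, at 1558 ± 298 at 2 weeks and 2295 ± 454 at 4 weeks. NOD had 1114 ± 306 and 1509 ± 217, and NON 1027 ± 319 and 1889 ± 458. The strains overlapped and the F-test did not pass (adjusted p = 0.413 and 0.331). The dimmer 1459872_x_at had means of 345 to 531 in the 6 groups (adjusted p = 0.823 and 0.885). H2-DMb2 on 1443687_x_at was also highest in C57, where the mice of 4 weeks were at 11781, 9759, 9004, 14034 and 13558 against 6761, 5429, 7811, 4852 and 6810.4 in NOD. Every C57 mouse was above every NOD mouse at that age, and the log2 difference NOD minus C57 was -0.87 (SE 0.21, adjusted p = 0.057, F-test adjusted p = 0.104). Probe set 1443686_at of H2-DMb2 had the same order of means at 4 weeks (8938 ± 1682 in C57, 6780.5 ± 1179 in NON and 6329 ± 1228 in NOD) and did not pass. Probe set 1419744_at gave another order, with its highest mean in NOD at 2 weeks (948 ± 205). NON had 551 ± 278 and C57 570 ± 83.1 at that age, and the F-test did not pass (adjusted p = 0.254). On 1419744_at NOD and C57 had like means at 4 weeks, 1204 ± 348 and 1174 ± 246, and NON had 738 ± 411.

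Probe set 1418638_at, annotated to both H2-DMb2 and its paralog H2-DMb1, was high in NOD at 2 weeks. The NOD mice were at 343, 429.5, 193, 285 and 314, the NON mice at 108, 151, 128, 146 and 71.6, and the C57 mice at 186, 148, 129.6, 133 and 152. All NOD mice were above all control mice. The log2 difference was 1.30 (SE 0.24, adjusted p = 0.0176) against NON and 0.98 (SE 0.24, adjusted p = 0.0731) against C57, and the first was lost without any 1 of NOD replicates 1, 2 and 5 or NON replicate 1 and with the B cell marker level as a covariate (1.07, adjusted p = 0.059). Its adjusted p was up to 0.0679 over the alternatives. At 4 weeks the means were 424 ± 67.3 in NOD, 292 ± 89 in NON and 211 ± 14 in C57 (F-test adjusted p = 0.0637). Every NOD mouse was above every C57 mouse at that age. The log2 difference NOD minus C57 was 0.96 (SE 0.21, adjusted p = 0.0366), a call kept under 15 of 27 alternatives. The signal of 1418638_at cannot be divided between the paralogs, and the other shared probe set, 1449580_s_at, did not pass (adjusted p = 0.635 and 0.788).

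H2-Oa and H2-Ob form H2-DO, which restrains H2-DM. H2-Oa was highest in C57 at 4 weeks, at 1665, 1632, 1554, 1694 and 1737, against 1255, 1369, 1502, 1455 and 1519 in NON and 1329, 974, 987, 1292 and 1233 in NOD. Every C57 mouse was above every other mouse of that age, but the F-test did not pass (adjusted p = 0.236). H2-Ob on 1440837_at was at 5726 ± 366 in C57, 5069 ± 1571 in NON and 3928 ± 836 in NOD at 4 weeks (F-test adjusted p = 0.429), with every NOD mouse below every C57 mouse.

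The second H2-Ob probe set, 1422201_at, shares its annotation with Gm20506 and gave a far larger strain difference. At 2 weeks the C57 mice were at 513, 656, 644, 534 and 501, the NOD mice at 218, 133, 102, 166 and 239, and the NON mice at 91.9, 54.5, 148, 110.3 and 62.5. At 4 weeks the C57 mice were at 1549, 763, 1834, 1244 and 1509, the NOD mice at 196, 101, 227, 151 and 161, and the NON mice at 59.4, 124, 171, 9 and 13.1. C57 did not overlap with either strain at either age. The C57 mean was 3.32-fold that of NOD at 2 weeks (log2 difference NOD minus C57 -1.72, SE 0.27, adjusted p = 0.00412) and 8.25-fold at 4 weeks (-2.96, SE 0.54, adjusted p = 0.0132). NON minus C57 was -2.55 (adjusted p = 0.000113) and -4.49 (adjusted p = 0.000415). With the B cell marker level as a covariate NOD minus C57 was -1.51 (SE 0.312, adjusted p = 0.0576) and -2.57 (SE 1.16, adjusted p = 1) and did not pass, while NON minus C57 did (adjusted p = 0.0429 and 0.00746). At 4 weeks NOD and C57 did not overlap in B cell level, so that fit cannot separate it from strain there. The values of 1422201_at cannot be assigned to H2-Ob, whose own probe set had a mean in NOD 0.838 times that in C57 at 2 weeks and 0.686 times at 4 weeks.

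Ciita, the class II coactivator, was dim and did not differ between strains past the threshold. On 1421210_at NOD had means of 242 ± 102 at 2 weeks and 294 ± 62.5 at 4 weeks, NON of 151 ± 56 and 239 ± 47.4, and C57 of 178 ± 29.7 and 267 ± 78.1 (F-test adjusted p = 0.516 and 0.796). Probe set 1421211_a_at had means between 102 and 172 in the 6 groups. Probe set 1447075_at ranged from 7.3 to 185 among the 5 NOD mice of 2 weeks, and a log2 difference between strains had an SE of 0.66 on it at that age (F-test adjusted p = 0.816).

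Most class II probe sets had higher means at 4 weeks than at 2 weeks in each strain, but no single change within a strain passed the test. The log2 change was above 0 for 21 of 24 probe sets in NOD, 23 in NON and 22 in C57. The median change was 0.43 in NOD, 0.93 in NON and 0.54 in C57, beside medians over all 38293 probe sets of -0.0022, 0.0034 and 0.0271. None of the 24 passed limma's test at an adjusted p of 0.05, where probe sets called higher at 4 weeks were 0.00522% of all in NOD, 0.0261% in NON and 0.00783% in C57. At an unadjusted p under 0.05, the numbers were 7 of 24 for NOD, 16 for NON and 17 for C57. Over all probe sets the same limit was passed by 7.49%, 11.1% and 8.22%. The methods' unpaired test of ages, run without limma's prior, called 0 in each strain after Benjamini-Hochberg adjustment. At the unadjusted limit that the study's methods set for ages, 0.001, it passed 0 of 24 for NOD and 0 for NON (0.298% and 0.875% of all probe sets), and 7 of 24 for C57 (0.593% of all), all 7 higher at 4 weeks. In NON, 8 of 24 rose when all 30 mice were fitted together, where 0.812% of all rose, and in C57, 5 rose with an intensity-dependent prior in limma, where 0.0366% of all rose.

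H2-Eb1 showed the age difference most evenly. Signals of 2 weeks were 8329, 7742, 4577, 8259 and 7592 in NOD, and those of 4 weeks were 11208, 10180.2, 13824, 9769 and 9649. In NON the mice of 2 weeks were at 5412, 7064, 6098, 6616 and 3706 and those of 4 weeks at 13736, 8764, 10051, 10487 and 11693. In C57 they were at 5058, 5348, 6683, 7613 and 6905 and at 8621, 8830.2, 10014, 9182 and 8882. In each strain every mouse of 4 weeks was above every mouse of 2 weeks. The log2 change was 0.60 (SE 0.22, adjusted p = 0.595) in NOD, 0.94 (SE 0.23, adjusted p = 0.166) in NON and 0.54 (SE 0.17, adjusted p = 0.379) in C57.

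When the age change was averaged over the 3 strains in 1 fit of all 30 mice, an analysis added after the data were seen, 12 of 24 class II probe sets rose and 0 fell. Over all probe sets 1.31% rose and 718 fell. The median change of the 24 was 0.59, beside 0.011 over all probe sets. H2-Eb1 rose by 0.69 (SE 0.11, adjusted p = 0.000233), H2-Ab1 by 0.76 on 1451721_a_at (SE 0.14, adjusted p = 0.00109) and H2-Oa by 0.67 (SE 0.13, adjusted p = 0.00261). H2-Aa rose on 3 of 4 probe sets, by 0.61, 0.71 and 0.73 (adjusted p = 0.00329, 0.00338 and 0.00468), and H2-Ab1 on all 3. H2-DMb2 rose on 1443687_x_at by 0.74 (adjusted p = 0.00325) and on 1443686_at by 0.78 (adjusted p = 0.00394), and H2-DMa on 1422527_at by 0.65 (adjusted p = 0.00508). Cd74 (0.45, adjusted p = 0.0665), H2-Ob (0.56, adjusted p = 0.0615) and Ciita (0.52 on 1421210_at, adjusted p = 0.0765) did not pass. With the B cell marker level of each mouse as a covariate, 3 of 24 passed (0.742% of all probe sets rose in that fit), H2-Eb1 (0.54, adjusted p = 0.00651), H2-Ab1 on 1451721_a_at (0.6, adjusted p = 0.0267) and 1418638_at (0.54, adjusted p = 0.0173). These 3 kept 76.2% to 78.9% of their change. The 9 that no longer passed kept 50.3% to 80.3%, as with H2-Aa on 1435290_x_at (0.49, adjusted p = 0.0562), H2-Oa (0.49, adjusted p = 0.0576) and H2-Ab1 on 1450648_s_at (0.43, adjusted p = 0.235).

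**Figure D3:**
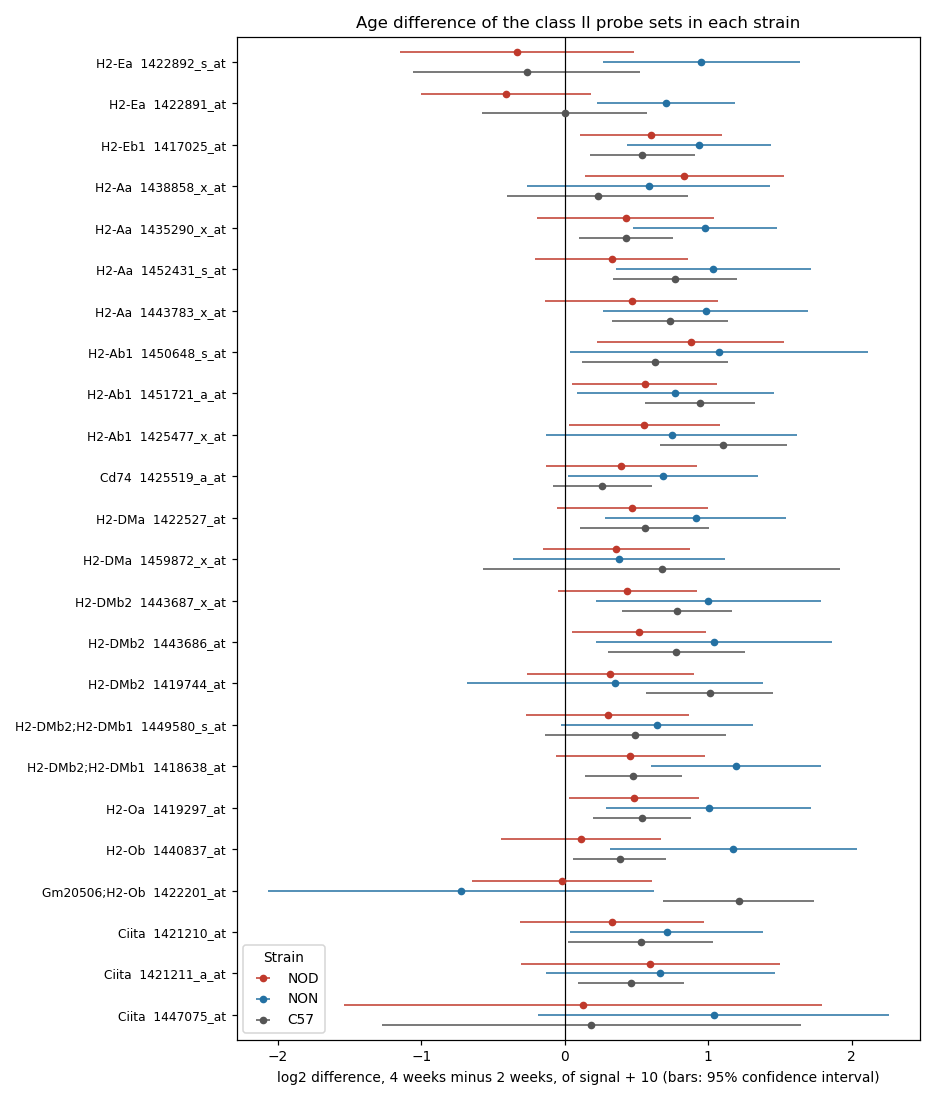
Log2 difference of signal + 10 between 4 and 2 weeks for the 24 tested class II probe sets in NOD, NON and C57 (points, with bars for the 95% confidence interval; 5 mice per age). The points right of 0 number 21 of 24 for NOD, 23 for NON and 22 for C57. The interaction of age and strain passed the test for none.

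The age change did not differ between strains past the threshold for any of the 24 (limma's F-test of the interaction), where 0.00261% of all probe sets passed. At an unadjusted p under 0.05, 5 of the 24 were past it, beside 6.9% of all probe sets, and an F-test without limma's prior also called 0. H2-Ea in NON, the strain where it was bright, changed by 0.95 (SE 0.31, adjusted p = 0.293) on 1422892_s_at and by 0.71 (SE 0.22, adjusted p = 0.269) on 1422891_at. The H2-Ea means of NOD and C57 were at most 62 at both ages. Probe set 1422201_at had its age difference in C57, the strain where it was bright, at 1.21 (SE 0.24, adjusted p = 0.105), and without C57 replicate 2 of 4 weeks this passed (adjusted p = 0.0378). Its change was -0.02 in NOD and -0.72 in NON.

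Of other genes of the class II pathway, 4 of 25 changed with age in the average over strains, beside 3.19% of all probe sets, and 1 differed between strains. The list held 27 genes (the RFX and NF-Y subunits, proteases and the thiol reductase of the endosome, ubiquitin ligases of class II, and activators and repressors of Ciita), of which 25 had a probe set of their own that was tested. The strain test passed for 1 of 25 at 2 weeks and 0 at 4 weeks (1.66% and 1.51% of all probe sets). The 1 was Marchf8, a membrane-bound ubiquitin ligase, whose mean at 2 weeks was 303 in NOD, 211 in C57 and 820.2 in NON (F-test adjusted p = 0.0435). Within a strain 1 age change passed, a fall of Ezh2, the methyltransferase of the polycomb complex, in C57 (log2 change -1.28, adjusted p = 0.0255). Averaged over strains, Ctss, the cathepsin that degrades the invariant chain, rose by 0.59 (adjusted p = 0.00372) and Marchf1, the ubiquitin ligase that removes class II from the surface, rose by 0.69 (adjusted p = 0.00242). Ezh2 (-0.84, adjusted p = 7.64e-05) and Nfya, a subunit of NF-Y (-0.37, adjusted p = 0.0328), fell. The median change of the 25 was 0.11. The genes whose subunits bind the X box, Rfx5, Rfxank and Rfxap, passed in none of these tests.

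Mean marker levels of the cells that carry class II varied between the groups but were not themselves tested, and few single markers passed a test. The mean level of 13 B cell markers, on the log2 scale, was 10.7 ± 0.176 in NOD, 10.4 ± 0.382 in NON and 11.1 ± 0.159 in C57 at 2 weeks and 10.6 ± 0.12, 11 ± 0.179 and 11.2 ± 0.187 at 4 weeks. Within groups it ran from 9.78 to 10.8 in NON and from 10.4 to 10.9 in NOD at 2 weeks. Of the 13, the strain test passed for 1 (Fcrla) at 2 weeks and 3 (Fcrla, Cd37 and Ebf1) at 4 weeks, none changed with age within a strain, and 3 rose in the average over strains (Cr2 by 1.04, Fcer2a by 0.73 and Cd22 by 0.47). Over all probe sets 1.66% and 1.51% passed the strain test at 2 and 4 weeks, and 1.31% rose in the average. No fall of a B cell marker passed the test. In the fit with the B cell level as covariate, 6 of 24 class II probe sets passed the strain test at 2 weeks (0.595% of all). At 4 weeks 4 passed (0.449% of all), but NOD overlapped with neither control in B cell level, which limits that fit. H2-Ea in NON differed from both other strains on both probe sets with this covariate.

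The mean level of 9 dendritic cell markers was higher at 4 weeks in each strain, at 8.59 ± 0.382 against 7.8 ± 0.362 in NOD, 8.34 ± 0.194 against 7.8 ± 0.122 in NON and 8.02 ± 0.304 against 7.64 ± 0.205 in C57. Averaged over strains Cd209a, Ccr7 and Itgax rose (3 of 9), and Clec10a differed between strains at 4 weeks (means 154 in NOD, 176 in NON and 45.2 in C57, F-test adjusted p = 0.00517). The mean level of 10 macrophage or monocyte markers was 9.6 ± 0.393 in NOD, 9.13 ± 0.79 in NON and 8.66 ± 0.258 in C57 at 2 weeks and 10.3 ± 0.525, 9.72 ± 0.385 and 9.27 ± 0.869 at 4 weeks, and Cd68 and C1qb rose in the average over strains. None of these 10 passed the strain test at either age, and no dendritic cell marker passed it at 2 weeks. No marker of either list changed with age within a strain. In that average 8 of 9 T cell markers rose, where 1.31% of all probe sets rose. Of 10 myeloid granule genes 8 fell, where 718 of all 38293 probe sets fell. Within C57 7 of them fell, where 41 of all changed in either direction. Of 8 erythroid genes none passed any of these tests. T cell markers passed the strain test for 2 of 9 at 2 weeks and 3 of 9 at 4 weeks, and myeloid granule genes for 0 and 2 of 10. Of all probe sets 1.66% and 1.51% passed it at these ages. Apart from the B cell level, the part of these cell types in the class II signals was not tested.

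**Figure D4:**
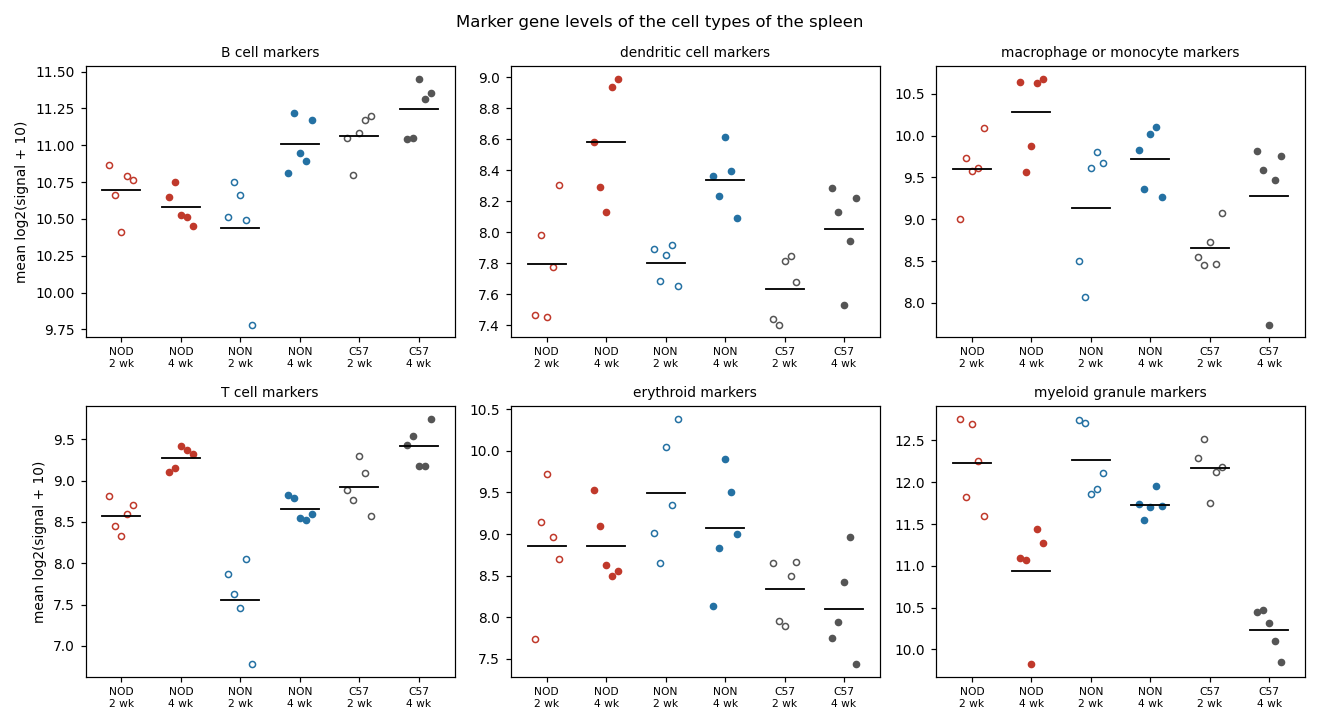
Mean log2(signal + 10) of the marker genes of 6 cell types in every mouse, by strain and age (open points 2 weeks, filled points 4 weeks, line at the mean of 5 mice). B cell markers are lowest in NON replicate 5 of 2 weeks (9.78), and dendritic cell and T cell markers have higher means at 4 weeks in all 3 strains.

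The genes outside the list whose signals were most like 3 of the members over the 30 mice are given as a description, since the mice share strain and array and fall into groups. Most like H2-Ea (1422892_s_at) were Gdpd3 (Pearson's r = 0.962), 1700020D05Rik (0.911), Ifi44l (0.826 and 0.825 on its probe sets) and Afap1 (0.802). All were brightest in NON, as with Gdpd3, whose mean at 4 weeks was 1723 in NON, 67.5 in NOD and 95.7 in C57. Most like H2-Aa on 1438858_x_at were Snx6 (0.808), Polr1c (0.807), Rps24 (0.803), Rpl8 (0.795) and Slc15a2 (0.779), all of them with their lowest mean in NOD at 2 weeks. Most like Ciita (1421210_at) were Gbp6 (0.785), a guanylate-binding protein, and Irf1 (0.781), a transcription factor of the interferon response, then Tcf25 (0.759), Pip4k2a (0.752) and Gab3 (0.749).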

How the data were processed

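RNA of spleen leukocytes from 30 mice, 1 mouse per sample, had been hybridised to 430A and 430B arrays (60 in all). Per the labels and methods the authors deposited values of MAS 5.0, a linear intensity, after scaling every array to a common mean. The 2% trimmed mean was 249.9 to 250 in each file, which is not the target that the methods name, so the unit is arbitrary. A signal is therefore relative to the other transcripts of its array. Differences are on the scale of log2(signal + 10), which understates those of dim probe sets, and a fold is the quotient of mean signals. A probe set was kept at a signal of at least 50 in at least 5 of 30 mice (38293 of 45037), and 64 control probe sets per array were left out. Probe sets carried by both arrays (100) were read from 430A. limma 3.58.1 in R 4.3.3 gave a moderated F-test of the strains within an age (15 mice) and a test of age within a strain (10 mice). P-values were adjusted by Benjamini-Hochberg over every kept probe set, and calls were made at 0.05. Pairwise differences come from the same fit.

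Members, gene lists and tests were chosen with earlier results of these data known. Every member probe set was reported. List genes were named where they passed a test, and each list gene was read on its brightest kept probe set. Marker levels are means over list genes. The code was tested on simulated data. Alternatives covered the pseudocount, the filter, quantile normalization, limma's prior, an unpaired t-test or one-way analysis of variance in place of limma's, the methods' unadjusted limit of 0.001 for ages (added after the data were seen), covariates, a replicate block and leaving out mice. Promoters came from RefSeq (GRCm38.p6). The promoters of H2-Ea, H2-Ab1, Cd74 and Ciita and protein sequences were not analysed here. The number of arrays limits the precision.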

Additional observations from a re-analysis of the deposited data

Results flagged for a closer look

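In each of the 24 tested class II probe sets and 6 groups, the highest or lowest mouse was compared with the others of its group. It stood apart from them by more than Dixon's critical value in 6 of 144 groups (4.17%), where chance alone gives about 1 in 20. H2-Eb1 was low in NOD replicate 3 of 2 weeks, at 4577 against 7592 to 8329 in the other mice. H2-Ab1 on 1451721_a_at was low in NON replicate 1 of 4 weeks (2156 against 3256 to 3475). Cd74 was high in C57 replicate 3 of 2 weeks (15546 against 11625 to 12288). H2-DMa on 1459872_x_at was low in C57 replicate 1 of 2 weeks (49.8 against 393 to 458). Ciita on 1421210_at was low in NOD replicate 1 of 4 weeks (186 against 301 to 344) and high in NON replicate 2 of 4 weeks (322 against 205 to 229). Each of these 6 mice stood apart on 1 probe set.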

How the results depend on the processing

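Of the 7 class II probe sets past the strain test at 2 weeks, 4 were past an adjusted p of 0.005, and the 13 alternatives gave 4 to 8. The 5 at 4 weeks became 8 with limma's intensity-dependent prior, and the alternatives gave 4 to 8. Age changes within NOD stayed at 0 under every alternative. Those in NON became 8 with all 30 mice in 1 fit, and those in C57 became 2 with a pseudocount of 50, 5 with the intensity-dependent prior and 7 with the methods' unpaired t-test at its unadjusted limit (0 in NOD and NON). The 12 that rose over the average of strains became 3 with the B cell marker level as covariate, and the interaction of age and strain stayed at 0. Leaving out each mouse in turn gave 4 to 8 at 2 weeks (4 without NOD replicate 2), 5 to 6 at 4 weeks, 0 in NOD and NON, 0 to 1 in C57 (1 without C57 replicate 2 of 4 weeks), 0 for the interaction and 12 to 14 for the average. With that covariate the 12 kept 50.3% to 80.3% of their change. The cause of these shifts was not tested. With a replicate block the counts were 5, 5, 0, 0, 0, 0 and 12. Deviations of mice of the same number were at most weakly correlated (r from -0.149 to 0.187). Whether the numbers mark a shared batch was not tested. Without NON replicates 2 and 5 of 2 weeks, an alternative chosen after seeing the data, the counts at 2 weeks, in NON and for the average were 7, 0 and 14. No called difference changed sign. Of 6576 values of single probe sets under the alternatives, 65 lost and 67 gained the call. Signals near background limit H2-Ea in NOD and C57, and its ratios there.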
